A study of Mus musculus with 9 samples.

Results

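Sox2 binding in mouse lung epithelial cells with ectopic Sox2 expression was compared with that in wildtype cells, using every region of both Sox2 ChIP-seq peak lists, made by sequencing DNA that was crosslinked to the factor and pulled down with a goat antibody against Sox2. The ectopic Sox2 list held 229 summits (points of highest enrichment) in 228 regions, and the wildtype list held 552 summits in 545 regions, together 773 of the 3324 regions of the 3 Sox2 lists in the series. Regions of the 2 lists were matched when they overlapped by at least 1 bp. Both groups are C57BL/6 mice labelled 8 weeks old with Nkx2-1 intact, and they differ by the ectopic Sox2 expression. The labels used here give neither the promoter or allele that drives Sox2 nor the way the epithelial cells were obtained, and no RNA value was used to check the genotype. The third Sox2 list, from cells with ectopic Sox2 expression and Nkx2-1 deletion, served only as a further look at the same regions. Each condition has 1 library, so no difference between the lists has a replicate check and none was tested. All intervals are 95% intervals. They cover counting error only, except those of median ratios, which describe the spread over regions.

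Sox2 is a high mobility group transcription factor that binds a short AT-rich sequence in the minor groove, often beside a partner factor such as an octamer-binding POU protein. In the foregut it marks the oesophagus and the conducting airways, while Nkx2-1 marks the lung and, in the adult, the alveolar epithelium. In wildtype lung Sox2 is found in airway cells, and its levels in alveolar cells are low.

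Against the wildtype list, the ectopic Sox2 list was shorter, had a wildtype region for 43.9% of its regions, and had a larger share of its summits at gene starts. Of the ectopic Sox2 summits, 29 of 229 lay within 1 kb of a gene start in the RefSeq promoter table (12.7%, interval 8.65% to 17.7%). Of the wildtype summits, 19 of 552 did (3.44%, 2.08% to 5.32%). Such positions make up 1.41% of the genome span. Some of the sequences under these summits are given here, so that the letters counted in the following paragraphs can be seen in place. They are from RefSeq promoter entries of the build GRCm38.p6, the assembly of mm10, and reach up to 50 bases to each side of the ectopic Sox2 summit (for Cox19, of the wildtype summit), read along the strand of the gene. The counts are over whole promoter entries, which reach further, except where a distance to the summit is given.

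Nrarp and Shroom3 had a summit in both lists. Capitals mark the letters ATTGNNATGCAAAT, a Sox-like stretch followed by the octamer ATGCAAAT.
Nrarp (chr2:25180644-25180744, plus strand): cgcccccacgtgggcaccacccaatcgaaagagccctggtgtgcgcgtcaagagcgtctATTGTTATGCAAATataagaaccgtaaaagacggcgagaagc
Shroom3 (chr5:92897799-92897899, plus strand): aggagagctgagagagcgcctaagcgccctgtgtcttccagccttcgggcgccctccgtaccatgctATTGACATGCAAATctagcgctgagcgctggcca

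Snrpb2 and Palb2 also had a summit in both lists. In these and the following sequences capitals mark ATCGA and CTCGGC, or the same letters of the other strand (TCGAT and GCCGAG).
Snrpb2 (chr2:143062957-143063057, plus strand): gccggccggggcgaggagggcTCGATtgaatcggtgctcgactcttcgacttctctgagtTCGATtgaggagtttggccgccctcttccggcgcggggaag
Palb2 (chr7:122132981-122133040, minus strand): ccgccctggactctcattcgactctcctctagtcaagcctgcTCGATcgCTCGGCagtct

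Pdcd5, Snx18, Lsm5 and Pet117 had a summit in the ectopic Sox2 list alone, and are its 4 strongest such starts by −log10 q with the summit outside every protein-coding gene span. Among stronger ones with the summit inside a span, Exoc2 holds both sets of letters within 50 bases of the summit, and Ino80, Fan1 and Arsk (the divergent partner of Ttc37) hold neither there.
Pdcd5 (chr7:35647485-35647585, minus strand): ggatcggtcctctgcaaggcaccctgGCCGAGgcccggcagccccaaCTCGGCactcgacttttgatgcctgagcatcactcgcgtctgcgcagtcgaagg
Lsm5 (chr6:56704713-56704813, minus strand): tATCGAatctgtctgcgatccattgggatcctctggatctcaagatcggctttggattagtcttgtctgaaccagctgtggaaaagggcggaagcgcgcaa
Snx18 (chr13:113618604-113618704, minus strand): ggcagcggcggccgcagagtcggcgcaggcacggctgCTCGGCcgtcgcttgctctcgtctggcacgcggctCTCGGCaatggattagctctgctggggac
Pet117 (chr2:144368865-144368965, plus strand): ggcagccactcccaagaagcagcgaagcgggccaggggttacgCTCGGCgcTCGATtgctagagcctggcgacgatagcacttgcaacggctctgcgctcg

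Cox19 carried the strongest wildtype summit at a gene start that had no ectopic Sox2 region, and its stretch holds neither of these letters. Over the 6 promoter entries with a summit in the wildtype list alone, ATCGA and CTCGGC were each in 2 (33.3%), those of Dph1 and Ercc2.
Cox19 (chr5:139345167-139345255, minus strand): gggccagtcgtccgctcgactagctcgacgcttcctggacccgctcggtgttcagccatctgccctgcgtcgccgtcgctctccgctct

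The letters ATTGNNATGCAAAT were taken from these 2 promoters themselves, as the octamer and the 6 bases before it, with N where they differ, so that their 2 genes hold them by construction. Searched on both strands, they occurred in 5 of 21263 promoter entries of protein-coding genes (0.0235%), each entry reaching from 250 bases before to 50 bases after a start. Those 5 entries belong to Exoc1, Nrarp, Pipox and Shroom3. Thus Nrarp and Shroom3, both of them with a summit in both lists, are 2 of the 4 genes that hold these letters. At Nrarp the match lay 15 bp from the ectopic Sox2 summit and 19 bp from the wildtype summit. At Shroom3 it lay 23 bp and 9 bp away. Nrarp encodes an ankyrin repeat protein that dampens Notch signalling and is itself a Notch target, and Shroom3 encodes an actin-binding protein of apical constriction. The summit at Nrarp rested on 42 ChIP fragments with ectopic Sox2 and 69 in wildtype, and that at Shroom3 on 22 and 18.

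The short Sox core, ACAAT or ACAAAG on either strand, was common everywhere. It was found in 12 of the 26 promoter entries that held an ectopic Sox2 summit (46.2%), in 8 of the 15 that held a wildtype summit (53.3%) and in 38.9% of all entries. Among the 10137 entries with an observed to expected CpG ratio of at least 0.6 the share was 25.3%. Among the 17 entries with a summit in the ectopic Sox2 list alone it was 6 (35.3%), and among the 9 shared ones 6 (66.7%). The longer CATTGT was in none of those 17, in 1 of the 9 shared (Ptma) and in 11.0% of all entries. Within 50 bases of the summit, the Sox core was in only 5 of the 26 ectopic Sox2 entries and 6 of the 15 wildtype entries. A match describes the letters in a window and is not a binding site, and a window without one says only that these letters are not there.

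The other marked letters were picked after the sequences had been seen, so their counts are descriptions of what was picked. ATCGA was in 16 of the 26 entries with an ectopic Sox2 summit (61.5%) and in 9 of the 15 with a wildtype summit (60%), beside 7.31% of all entries and 9.12% of those with a high CpG ratio. The sets of 26 and 15 overlap at shared regions, so neither is a separate check of the other. Apart, ATCGA was in 10 of 17 entries of the ectopic Sox2 list alone, 6 of 9 shared ones and 2 of 6 of the wildtype list alone. Within 50 bases of the summit it was in 13 of the 26 and 8 of the 15. The longer TCGATTG, which overlaps ATCGA read on the other strand, was in 7 of the 26 (26.9%), in 5 of the 15 with a wildtype summit (33.3%) and in 0.762% of all entries. CTCGGC was in 14 of the 26 (53.8%) and in 6 of the 15 (40%), beside 18.5% of all entries and 32.0% of the high-CpG entries. Within 50 bases of the summit it was in 12 of the 26 and 4 of the 15. Among 28 entries whose summit was in the Nkx2-1 deleted list alone, ATCGA was in 4 (14.3%), CTCGGC in 3 (10.7%) and the Sox core in 18 (64.3%). The entries with an ectopic Sox2 or wildtype summit were also rich in CpG, with a median ratio of 0.820 and 0.813, against 0.567 over all entries and 0.478 in the 28. The part of CpG content in these shares was not tested beyond the high-CpG comparison given with them.

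The summits at gene starts sat close to the start itself. With ectopic Sox2 their median distance was 62 bp, 23 of the 29 lay within 100 bp, and 21 lay before the start against 8 after it. In wildtype 16 of the 19 lay before the start, at a median of 61 bp. Of the 17492 protein-coding genes in the promoter table, 0.183% had a start within 1 kb of an ectopic Sox2 summit (32 genes) and 0.114% of a wildtype summit (20 genes). The summits of regions in the ectopic Sox2 list alone were at starts in 18 of 128 cases (14.1%, 8.55% to 21.3%). Those of shared regions were in 11 of 101 (10.9%, 5.56% to 18.7%), and those in the wildtype list alone in 8 of 451 (1.77%, 0.769% to 3.47%). The high share at starts was thus found both in what the ectopic Sox2 list shared with wildtype and in what it did not share.

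**Figure D1:**
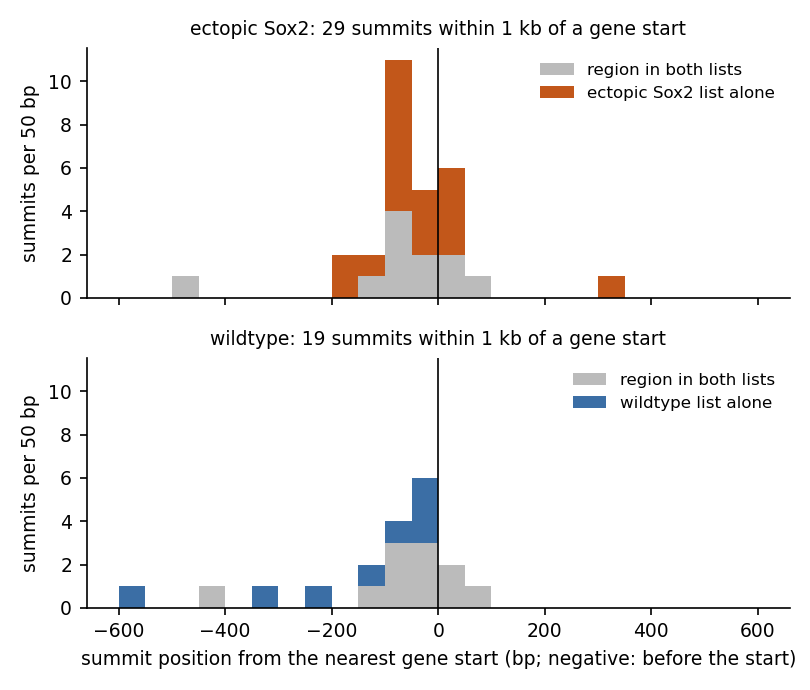
Summit position in bp from the nearest gene start (horizontal axis, negative before the start) and number of summits per 50 bp (vertical axis) for the 29 ectopic Sox2 and 19 wildtype summits within 1 kb of a start. Grey bars are regions in both lists and coloured bars regions in that list alone. In both lists most summits stand in the 100 bp on either side of the start.

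The genes at these starts have varied roles. In the ectopic Sox2 list, the strongest start summit by −log10 q was at Pdcd5, which encodes a protein linked to apoptosis, with 39 ChIP fragments and a fold enrichment over the control, as the authors' peak caller gives it, of 12.9 (−log10 q 18.99). The wildtype list had no region there, although 49.2 fragments would be the equal of 39 at its depth. Ino80, the ATPase of a chromatin remodelling complex, had 44 fragments with ectopic Sox2 and no wildtype region. The same held at Snx18, a sorting nexin of endocytosis, with 43 fragments, at Exoc2, an exocyst subunit, with 52, and at Lsm5, a member of the ring that binds U6 RNA, with 33. The divergent starts of Ttc37, of the complex that feeds RNA to the exosome, and Arsk, a lysosomal sulfatase, shared 1 ectopic Sox2 summit of 36 fragments. Fan1, a nuclease of DNA crosslink repair, also had 36. None of these 7 start regions was in the wildtype list, and an unlisted region has no value there, so how far the wildtype library fell below is not known.

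At other starts both libraries had a value. Snrpb2, a protein of the U2 spliceosomal particle, had 48 fragments with ectopic Sox2 and 50 in wildtype. The divergent pair Palb2, the partner of Brca2 in recombination, and Dctn5, a dynactin subunit, had 63 and 54. Kdm8, a Jumonji-domain protein, had 58 and 44, and Mtf2, an accessory protein of Polycomb repressive complex, had 42 and 58. In these shared cases the raw fragments went either way. Scaled for depth, the ratio of ectopic Sox2 to wildtype was 1.21 at Snrpb2, 1.47 at Palb2, 1.66 at Kdm8 and 0.913 at Mtf2.

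Wildtype summits at starts without an ectopic Sox2 region were at Cox19, an assembly factor of cytochrome oxidase, with 46 fragments, and at Dph1, Fmo2, Lpp, Tex2, Mrps10, Ltbp1 and Ercc2, with 25 to 42. A further 9 ectopic Sox2 summits lay within 1 kb of an end of a gene whose start is not in the promoter table. The strongest of the ectopic Sox2 list's own was at Znhit3, a factor of small nucleolar particle assembly, with 45 fragments and a fold of 14.9. Others were at Vps28 of the ESCRT machinery, Dctn6 of dynactin, the elongation factor gene Tcea1, the translation initiation gene Eif2b3 and the keratin gene Krt6a, all without a wildtype region. Psmd3, Tmprss7 and Ccdc150 were in both lists. With these, 38 of 229 ectopic Sox2 summits were at a gene end (16.6%, 12.0% to 22.1%) and 29 of 552 wildtype summits (5.25%, 3.55% to 7.46%), beside 3.30% of the genome span.

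**Figure D2:**
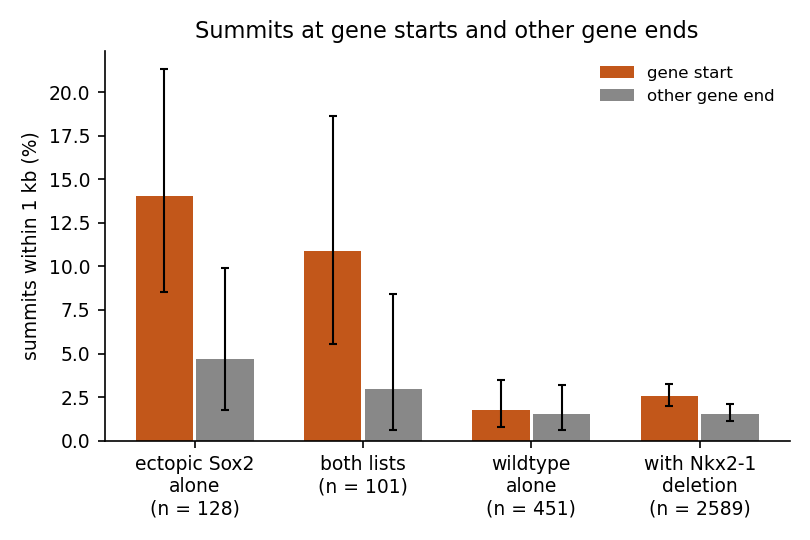
Share of summits in percent (vertical axis) within 1 kb of a gene start and of another gene end, for summits in the ectopic Sox2 list alone, in both lists, in the wildtype list alone and in the Nkx2-1 deleted list. Bars are shares and lines are exact binomial intervals. The start share is 14.1% and 10.9% in the first 2 classes and 1.77% and 2.55% in the other 2.

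The start summits differed from the rest of the ectopic Sox2 list in other readouts. Of the 29, 7 (24.1%) overlapped a region of the Nkx2-1 deleted list, against 112 of the 200 away from starts (56.0%). In wildtype the figures were 6 of 19 (31.6%) and 267 of 533 (50.1%). The control background, the local control coverage expressed as ChIP fragments, was also higher at starts. Its median was 3.13 at starts and 1.57 away with ectopic Sox2, and 6.75 and 2.70 in wildtype. These are values of a few fragments, given without an interval. Which control library stands behind each list is not given in the sources used here, and the part of the control background in the start summits was not tested.

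Away from gene ends, more summits lay outside genes than inside them, and most of the genome span lies outside as well. Inside a gene were 77 of 229 ectopic Sox2 summits (33.6%) and 241 of 552 wildtype summits (43.7%), beside 37.5% of the genome span. Outside and away from any gene end were 114 (49.8%) and 282 (51.1%).

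The lists shared 100 pairs of regions. They made up 43.9% of the ectopic Sox2 regions (37.3% to 50.6%) and 18.3% of the wildtype regions (15.2% to 21.9%). From a −log10 q of 2 upward, sharing was higher in each stronger class. Of the ectopic Sox2 regions with −log10 q of at least 10, 26 of 43 had a wildtype region (60.5%), and between 2 and 5 it was 23 of 68 (33.8%). Of the wildtype regions the same figures were 32 of 79 (40.5%) and 21 of 194 (10.8%). Among the strongest 10 of each list, 7 ectopic Sox2 regions and 9 wildtype regions were shared.

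**Figure D3:**
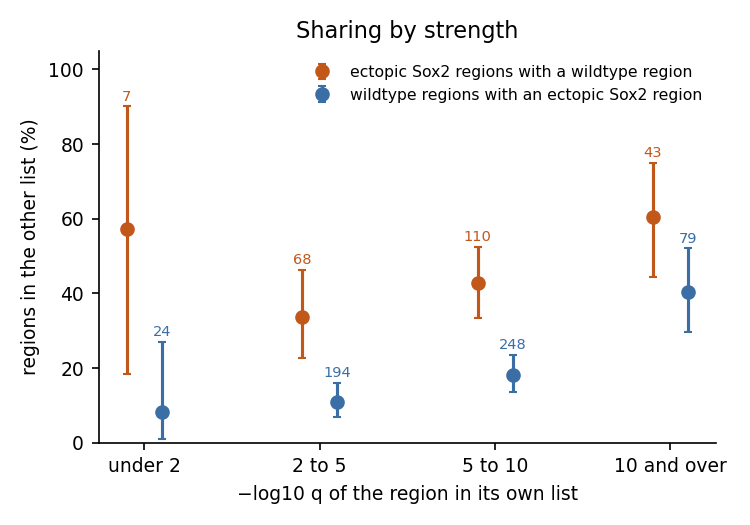
Share of regions found in the other list in percent (vertical axis) by the −log10 q of the region in its own list (horizontal axis), with exact binomial intervals and the number of regions above each. The share is highest at −log10 q of 10 and over in both lists, at 60.5% and 40.5%, with 7 and 24 regions only in the lowest bin.

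The strongest shared regions lay near genes of varied function. The leading one by −log10 q in the ectopic Sox2 list was 47.1 kb from Galntl6, a glycosyltransferase-like gene, at chr8:57725275-57725547, with 65 fragments against 62 in wildtype. The next, 18.3 kb from Klf13, a Krüppel-like factor, at chr7:63957094-63957379, had 36 against 67, and was the leading wildtype region with a −log10 q of 42.4. A region inside Aspa, which deacetylates N-acetylaspartate, had 61 against 67. A region 172.8 kb from Runx1, a Runt-domain factor, had 57 against 50. Smarce1, a BAF complex subunit, had one 8.82 kb away with 63 against 57, and Ctsl, a lysosomal protease, one 2.99 kb away with 53 against 50. These regions were well filled in both libraries, and a nearest gene need not be the one a region acts on.

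The ectopic Sox2 library was shallower. The mean ChIP coverage recovered from the listed values was 0.764 fragments per position with ectopic Sox2 and 0.963 in wildtype, a ratio of 0.793, while the number of summits had a ratio of 0.415. Scaled down to the ectopic Sox2 depth, 487 of the 552 wildtype summits (88.2%) still passed the lowest −log10 p of the ectopic Sox2 list, 5.47. Of the wildtype summits without an ectopic Sox2 region 393 of 451 did (87.1%, 83.7% to 90.1%). The calling threshold of the lists is not given, the scaled values carry no sampling noise and each side has 1 library, so the part of depth in the length of the lists cannot be told apart.

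The 8 strongest wildtype regions absent from the ectopic Sox2 list are given as the top of their class. A summit inside Tjp1, the tight junction scaffold ZO-1, at chr7:65454224-65454490, had 36 fragments, which scale to 28.5. A summit inside Cbl, a ubiquitin ligase of receptor signalling, had 33, which scale to 26.2, and one inside Peak1, a pseudokinase of the cytoskeleton, had 40, which scale to 31.7. Ppp2r2b, Zfp362, Gm29958, Abca1 and Mpdz completed the leading 8 with 33 to 52 fragments. They were picked for their strength, and the median summit in the wildtype list alone had 22 fragments before scaling. In the other direction, the leading region away from gene ends in the ectopic Sox2 list alone lay inside Vsnl1, a neuronal calcium sensor, at chr12:11389143-11389476, with 43 fragments, and it was also in the Nkx2-1 deleted list.

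Summits of regions in 1 list alone had a lower median −log10 q and fewer fragments than shared ones, but not a lower fold in wildtype. The median −log10 q was 5.18 for summits in the ectopic Sox2 list alone and 5.47 for those in the wildtype list alone, against 7.17 and 8.03 for shared summits on the ectopic Sox2 and the wildtype side. Their median fragments were 22 and 22, against 27 and 36. Their median fold was 6.25 and 5.81, against 7.01 and 5.62. Of the shared regions 62 of 100 were also in the Nkx2-1 deleted list (62.0%, 51.7% to 71.5%). Of those in the ectopic Sox2 list alone 56 of 128 were (43.8%, 35.0% to 52.8%), and of those in the wildtype list alone 208 of 445 (46.7%, 42.0% to 51.5%). Many regions in only 1 of the 2 lists were thus listed again in a further library.

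At the 100 shared regions both libraries give fragments, and their ratio, ectopic Sox2 over wildtype divided by the depth ratio, compares the signal. The median was 0.957 (interval of the median over regions 0.901 to 1.00) and the values ran from 0.504 to 1.66, with 41 regions above 1 and 59 below. The summits of a pair were a median of 18.5 bp apart, and 86 of 100 pairs were within 50 bp. For 94 regions the interval of the ratio took in 1. It lay above 1 for 5 regions (5% of the 100) and below 1 for 1 (1%). Each interval was set for its region alone and was not adjusted for the 100 regions read. A few such intervals can miss 1 by counting error alone, so these counts do not show that any single region differs. A region must pass in both lists to be shared, so regions with a large difference may be missing from these counts.

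The regions above 1 were at or near Kdm8 with 58 fragments against 44 (ratio 1.66, 1.10 to 2.52), Rpl22 with 46 against 35 (1.66, 1.04 to 2.65), Arhgef28 with 44 against 34 (1.63, 1.02 to 2.63), Psmd3 with 51 against 40 (1.61, 1.04 to 2.4965) and Palb2 with 63 against 54 (1.47, 1.01 to 2.16). Kdm8, Rpl22 and Palb2 are starts, Psmd3 is a gene end, and the Arhgef28 region lies 246.6 kb from the gene. All are named for their unadjusted interval, and none is taken as shown to differ. The region below 1 was inside Lpp, an adhesion scaffold, with 19 against 43 (0.557, 0.307 to 0.977), and with the ratio scaled instead by the regions found in all 3 lists its interval took in 1. The lowest ratio was 166.4 kb from Kcna5, a potassium channel, with 10 against 25 (0.504, 0.216 to 1.09). Ccm2, a scaffold of vascular junctions, had 17 against 37 (0.579, 0.306 to 1.06), and 1700016C15Rik had 19 against 41 (0.584, 0.320 to 1.03).

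At the 11 shared regions within 1 kb of a start the median ratio was 1.47 (0.768 to 1.66), with 7 above 1 and 4 below, and at the other 89 it was 0.946 (0.894 to 0.991). The 2 intervals overlap, but they describe the spread over regions, which are not replicates of a condition. Below 1 among the starts were Nrarp (0.768, 0.510 to 1.14), Ptma (0.788, 0.482 to 1.27), Mtf2 (0.913, 0.599 to 1.38) and 1700016C15Rik. The control background differed along this split, as its depth-scaled ratio had a median of 0.781 at the starts and 0.586 away from them. At Rpl22 it was 2.93, from a control of 9.40 against 4.05. These control values rest on few fragments and have no interval. With the control subtracted, the median ratio was 1.45 at the starts and 1.02 away.

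**Figure D4:**
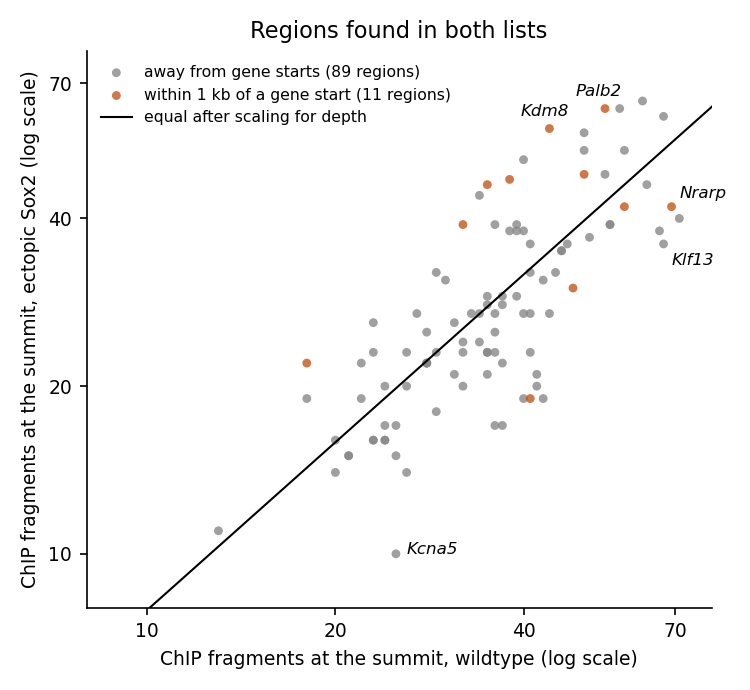
ChIP fragments at the summit in wildtype (horizontal axis, log scale) and with ectopic Sox2 (vertical axis, log scale) for the 100 shared regions. Each point is a region, orange where it is within 1 kb of a gene start, and the line marks equal signal after scaling for depth. Points lie on both sides of the line, 41 above and 59 below, and 7 of the 11 orange points lie above it.

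The Sox2 and Nkx2-1 genes had no summit close by. The nearest to Sox2 was 1071 kb away with ectopic Sox2 and 573 kb in wildtype, and the nearest to Nkx2-1 was 1245 kb and 271 kb away. By chromosome, the ectopic Sox2 list had 1 summit on chromosome 19 (0.437% of its summits), against 15 in wildtype (2.72%). On X it had none, against 3 in wildtype (0.543%). Chromosome 3 held 25 (10.9%) against 40 (7.25%), and chromosome 1 held 24 (10.5%) against 29 (5.25%).

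Genes of 20 lists, 395 genes in all, were then read for a summit within 50 kb. Of all 21887 protein-coding genes 1.53% had one in the ectopic Sox2 list, 2.85% in the wildtype list and 0.685% in both. Of the 395 listed genes 18 had one with ectopic Sox2 (4.56%), 26 in wildtype (6.58%) and 9 in both. These shares are above those of all genes, but members and lists were chosen with earlier results of these data known. The lists were also not matched on gene length, and several members share a summit. Nothing particular to any single list is read from counts this small.

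Lineage markers of the lung had few summits in either library, as did protein-coding genes in general. None of the 14 airway secretory genes and none of the 16 alveolar type 2 genes had one. Of the 14 alveolar type 1 genes only Clic5, a chloride channel gene, had one, in wildtype (18 fragments, 47.4 kb away). Of the 16 ciliated cell genes only Tubb4b had one in either list, and it is the Nrarp summit, 41.5 kb away. Of 26 foregut and lung transcription factors only Tead1, the DNA-binding partner of Yap, had one, inside the gene in both lists. It had 38 fragments against 39, a depth-scaled ratio of 1.23 (0.765 to 1.97). For markers of other cells, S100a8 of the immune list had a wildtype summit 30.0 kb away, for which S100a7a is the nearest gene. Pecam1 of the endothelial list had one 41.1 kb away, which is the Tex2 start summit. Cspg4 of the mesenchymal list had one 1.51 kb away with ectopic Sox2 (26 fragments). A summit near a marker says nothing of its expression.

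Basal and squamous genes had summits in both libraries, at different places. With ectopic Sox2, 1 summit of 29 fragments (−log10 q 5.73) lay 0.254 kb from Krt6a and 12.5 kb from Krt5, the keratins of stressed squamous and of basal cells. In wildtype, a summit of 19 fragments lay inside Trp63, the master regulator of basal cells (−log10 q 2.09). Others lay 12.3 kb from the desmosomal cadherin gene Dsg3 (26 fragments, 5.38) and 19.2 kb from Perp, a desmosomal protein gene (15 fragments, 2.23). The −log10 q of the wildtype list had a lowest value of 1.42 and a median of 5.64, so the Trp63 and Perp summits were weak ones. So 2 of 26 genes had a summit with ectopic Sox2 and 3 of 26 in wildtype, with none in both. Of all protein-coding genes only 0.685% had one in both, so nothing about these genes is read from that. The Krt6a, Perp and Trp63 regions were also in the Nkx2-1 deleted list.

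Of the 24 Notch genes 3 had a summit with ectopic Sox2 and 1 in wildtype. Besides Nrarp these were the ligand Dll1, 3.92 kb away with 20 fragments (−log10 q 2.25), and the receptor Notch2, 40.1 kb away with 13 (3.73). Neither had a wildtype region, and the median −log10 q of the ectopic Sox2 list was 6.04. Of 21 DNA repair genes Fan1, Ino80 and Palb2 had one with ectopic Sox2, all 3 at starts, and Palb2 alone in wildtype. Of 20 Hippo genes Tead1 and Amotl1, an angiomotin that holds Yap at junctions, had one in both lists, Amotl1 with 15 fragments against 21, and Sav1, a scaffold of the kinase cascade, in wildtype alone with 31. Of 33 Wnt genes the ligand Wnt4 had one with ectopic Sox2 (17 fragments) and the effector Tcf7 a pair of summits in wildtype (16 and 13). The Tcf7 summits lay 3.22 kb and 15.9 kb away, and the farther is at an end of Skp1. Of 32 Fgf, Bmp and Hedgehog genes only Fgf1 had one, with ectopic Sox2 (18 fragments).

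Transcription factor genes of the Sox list (2 of 20 with ectopic Sox2, 3 of 20 in wildtype) and of the Klf and Myc list (2 and 3 of 24) shared some sites between the libraries. Inside Sox5, a SoxD factor without an activation domain, the ectopic Sox2 list had 1 weak summit of 14 fragments (−log10 q 1.67). It was shared with a wildtype summit of 26 (8.03), and wildtype had a further pair, of 22 and 21. Inside its relative Sox6 the shared summit had 38 fragments in each library, with a second of 30 in the ectopic Sox2 list alone and a further pair, of 25 and 28, in the wildtype list alone. Sox21, a SoxB2 factor, had a wildtype summit of 33 fragments 2.82 kb away and none with ectopic Sox2. Mycn, a Myc family gene, had a shared summit 41.4 kb away with 27 fragments in each library. Klf13 was shared, as given with the strongest regions, and Klf6 had a wildtype summit of 18 fragments alone. These fragments are not scaled for depth. Scaled, the ratio was 1.26 at Mycn (0.712 to 2.23) and 1.26 at the shared Sox6 summit (0.783 to 2.03). It was 0.679 at the shared Sox5 summit (0.328 to 1.35) and 0.678 at Klf13 (0.439 to 1.03).

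Some lists had summits in wildtype alone. In the gastric and intestinal list, 3 trefoil genes (Tff1, Tff2, Tff3) lie within 50 kb of a single wildtype summit of 22 fragments, which is inside Abcg1. Rb1, the retinoblastoma gene, had a wildtype summit of 49 fragments over a control background of 12.1, and Cdk6, a G1 kinase, one of 12. Zfp42, a marker of pluripotent cells, had one of 20 fragments 30.2 kb away, and Tbp of the housekeeping list one of 24 inside the gene. The wildtype list held 2.41 times as many summits as the ectopic Sox2 list.

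**Figure D5:**
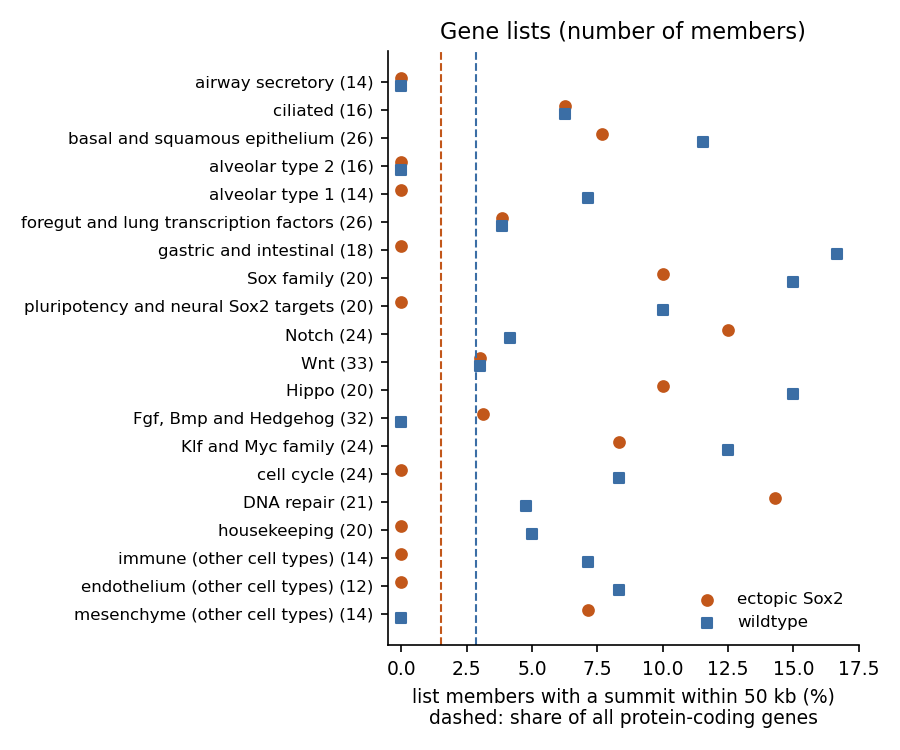
Share of the members of each gene list with a summit within 50 kb in percent (horizontal axis), for the ectopic Sox2 list (circles) and the wildtype list (squares), with the number of members beside each name. Dashed lines are the shares of all protein-coding genes, 1.53% and 2.85%, and the airway secretory and alveolar type 2 lists stand at 0 in both.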

How the data were processed

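Sox2 ChIP libraries of 2 conditions, 1 library each, were compared. Per the labels, chromatin was fixed with EGS and formaldehyde and reads were single, of 50 bp. The submitters' processing notes name Bowtie2 2.2.9, SAMtools 1.4, MACS2 2.1.1, HOMER 4.8.3 and mm10. The sources used here name neither the control nor the calling threshold. The authors' deposited peak lists, called per library, give for each summit a score (not used further), a fold ratio over the control, −log10 p and −log10 q. All are the authors' values and describe summits within a list.

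ChIP fragments were recovered from fold and −log10 p, with the peak caller's pseudocount of 1 and a tolerance of 0.002 on whole fragments, leaving 1 wildtype summit with several solutions; the recovery was tested on simulated data. Depth is the recovered mean coverage. Intervals are exact Poisson, exact binomial or, for the ratio of a region, exact conditional binomial. Those of median ratios are taken from the ranked ratios of the regions. Genes and promoter entries are RefSeq, GRCm38.p6; of 21887 protein-coding genes 17492 have an entry, and all 395 listed genes matched. The planned motif share at all summits was not run, since no genome sequence was used here. Named genes are the 8 leading summits per class, 12 starts, 4 highest and 4 lowest ratios, the Sox2 and Nkx2-1 loci and list members; other starts and gene ends were named after their values were seen. Members and lists were chosen with earlier results of these data known. Python 3.11.15, numpy 2.4.6, pandas 2.3.3 and scipy 1.17.1 were used.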

Additional observations from a re-analysis of the deposited data

How the results depend on the processing

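Of 55 recomputed values, 47 stayed within the interval, or within 1.5 times, of the value reported and 8 moved further. The 47 include the ratios of the 4 highest and 4 lowest regions, whose intervals are wide. Scaling by regions found in all 3 lists multiplied these ratios by the same factor, small beside those intervals. They could not move under it, so the 47 overstate how much was checked. The share of regions in both lists stayed in its interval with stricter overlap, wider matching, −log10 q of at least 2 or 5, or without chromosome 19. Counting only summits with a region in the Nkx2-1 deleted list left 119 ectopic Sox2 and 273 wildtype summits, and −log10 q of at least 5 left 327 wildtype summits. These counts fall by construction. The median ratio at shared regions was 1.04 with the control subtracted, so its side of 1 depends on the treatment of the control. Scaled by the median fragment ratio of the regions found in all 3 lists, it was 1.00. Those are 62 of the same 100 regions, so this value lies near 1 by construction and is no separate check. With that scale, 8 regions had an interval above 1 and 0 below, as Rsrc1, Runx1 and Smarce1 joined and Lpp left. This follows from the same shift of all ratios. These intervals were likewise not adjusted for the number of regions read. The share of ectopic Sox2 summits at gene ends was 22.9% at −log10 q of at least 5 and 25% among summits found in no other list. Within 10 kb, 12 list members had a wildtype summit (3.04%, beside 1.37% of all protein-coding genes). An ectopic Sox2 summit was there for 13 (3.29%, beside 0.736%), so wildtype no longer had the larger count. No paired analysis was possible because each condition has 1 library, and no library could be left out. The deposited lists hold only what passed a threshold, so a region absent from a list may lie just under it.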
